A study of Mus musculus with 18 samples.

Results

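The 10 genes described here encode nuclear receptors that bind lipids or pair with receptors that do, and 2 of their coactivators: Pparg, Ppara, Ppard, Rxra, Nr1h3, Nr1h4, Hnf4a, Nr5a2, Ppargc1a and Ppargc1b. They were taken by gene symbol, through every probe set that the array's annotation pairs with exactly 1 symbol, and so make up 10 of 18193 genes with a probe set and 25 of 45037 probe sets. The probe set with the highest mean over all arrays stands for its gene, and the others are given beside it.

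Liver RNA of wild-type CD1 mice was measured on 18 expression arrays, 3 in each of 6 groups. CMPF is a furan fatty acid metabolite, given at 6 mg/kg per day, and HFD is a diet in which fat supplies 60% of the energy. The prevention model gave vehicle or CMPF for 1 week before the HFD, which lasted 4 weeks by the sample labels and 4 to 5 by the series text. The reversal model gave the HFD for 6 weeks before 2 weeks of vehicle or CMPF injections. Each model has a chow control, an HFD control and an HFD group with CMPF, here called chow, HFD and CMPF. The labels used here give no age or sex and do not tie arrays to single animals, so each p measures the spread between these arrays, which may be technical.

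Nuclear receptors are transcription factors switched by small fat-soluble ligands. The PPARs respond to fatty acids, LXR alpha (Nr1h3) to oxysterols and FXR (Nr1h4) to bile acids, and each of these binds DNA as a pair with RXR alpha (Rxra), whereas HNF4 alpha (Hnf4a) binds as a pair with itself and LRH-1 (Nr5a2) binds alone. In hepatocytes PPAR alpha drives fatty acid oxidation, LXR alpha drives fat synthesis and sterol export, and PPAR gamma, best known for making fat cells, is low in lean liver and is known to rise in fatty liver of rodents.

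Of the 10 genes, Pparg and Nr1h3 were those that passed the test for HFD against chow, both in the reversal model. Their upstream sequences are shown so that the start sites these data cannot separate can be seen: RefSeq (GRCm38.p6) gives Pparg 3 entries that do not overlap and Nr1h3 2 that do, while each gene has 1 probe set, so its values cannot be assigned to a start. Each run below is the 250 bases before a start, 5′ to 3′ on the gene's strand, and capitals mark the core motif of nuclear receptor binding sites, AGGTCA or its reverse complement TGACCT. The first Pparg entry is chr6:115360894-115361143 on the plus strand (82.4% G and C), the second is chr6:115362099-115362348 (63.6%) and the third is chr6:115421816-115422065 (40.8%). The Nr1h3 entry shown is chr2:91195117-91195366 on the minus strand (63.2%). The median of all promoters is 52.4%.
Pparg start 1: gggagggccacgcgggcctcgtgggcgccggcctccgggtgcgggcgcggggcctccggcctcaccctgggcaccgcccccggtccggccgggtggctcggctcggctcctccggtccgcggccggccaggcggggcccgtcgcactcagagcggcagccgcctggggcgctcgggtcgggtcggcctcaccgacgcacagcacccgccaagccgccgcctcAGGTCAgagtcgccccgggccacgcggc
Pparg start 2: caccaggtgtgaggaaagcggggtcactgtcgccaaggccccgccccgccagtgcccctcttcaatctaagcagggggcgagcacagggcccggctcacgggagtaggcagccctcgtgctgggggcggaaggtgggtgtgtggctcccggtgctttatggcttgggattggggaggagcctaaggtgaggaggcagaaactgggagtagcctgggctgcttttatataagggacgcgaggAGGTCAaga
Pparg start 3: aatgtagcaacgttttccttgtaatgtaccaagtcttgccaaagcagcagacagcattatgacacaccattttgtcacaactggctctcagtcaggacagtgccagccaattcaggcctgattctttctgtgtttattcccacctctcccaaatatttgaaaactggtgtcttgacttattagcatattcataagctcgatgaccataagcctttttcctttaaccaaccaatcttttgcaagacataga
Nr1h3 start 1: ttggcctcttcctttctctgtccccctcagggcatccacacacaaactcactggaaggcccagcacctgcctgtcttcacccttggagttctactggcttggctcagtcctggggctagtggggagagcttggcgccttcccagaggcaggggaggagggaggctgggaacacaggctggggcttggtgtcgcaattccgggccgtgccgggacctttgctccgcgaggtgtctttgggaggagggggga

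The core motif begins 28 bases before the first Pparg start and 9 before the second, and it is not in the other windows printed. Searched on both strands, it lies in 5 of the 15 promoter entries of the 10 genes (Pparg starts 1 and 2, an Rxra, an Nr1h4 and an Nr5a2 entry) and in 14.0% of the 32851 mouse promoters of this length. The spaced repeats that RXR pairs favour, which contain the core motif, were searched as AGGTCA, a gap of 1 base (for PPAR) or 4 bases (for LXR), and AGGTCA again. They lie in 0.0335% and 0.0152% of promoters, on either strand, and in no entry of the 10 genes. A match here is a description of letters, not a shown binding site.

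Some arrays stand apart, and they bear on the results below. CMPF arrays 2 and 3 of the prevention model were nearly identical (SD of their difference 0.103 on the log2 scale, against at least 0.276 in any other of 153 pairs) and were averaged as 1 sample, so that group has n = 2. The array means fell at 2 levels, 5.08 to 5.10 in the prevention model and 5.25 to 5.26 in the reversal model, so levels are compared within a model only. An RNA quality index, the log2 signal of 3′ over 5′ probe sets of control transcripts, averaged 1.43 ± 0.512 (SD, n = 3) in prevention chow against 2.84 ± 0.303 in prevention HFD. Shorter RNA gives a higher index. Its lowest reversal values were 1.55 on HFD array 1 and 1.66 on CMPF array 3. Reversal chow array 2 correlated least with its model (median r 0.948). Hepatocyte markers were high in every group (summed level 16.4 to 16.6, log2).

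Pparg, the receptor gene that changed most, was higher on HFD than on chow in both models, and the difference passed the test in the reversal model. The 3 reversal chow arrays read 4.64, 5.34 and 5.14 (log2 signal), the HFD arrays 6.73, 6.71 and 6.84, and the CMPF arrays 5.93, 5.55 and 5.98. Every HFD array lay above every CMPF array, and every CMPF array above every chow array. The HFD effect was 1.72 ± 0.18 (log2, SE), a 3.29-fold rise (limma, adjusted p = 0.000766), and ranked 2 of 13228 genes by p. It kept its call with each array left out in turn (1.52 to 1.87, adjusted p 0.00100 to 0.00475). It lost the call when only these 2 groups were fitted (adjusted p = 0.0866), a setting in which 0 of all genes passed. In whole liver, more cells that carry a transcript and more transcript per cell cannot be told apart. Of 6 adipocyte markers 4 had a probe set, and 2 were above the filter. The summed level of the 4 overlapped between reversal chow (7.43 to 8.07) and HFD (7.38 to 8.05). Kupffer cell markers, from liver macrophages, were higher in that comparison without overlap (10.8 to 11.3 on chow, 11.4 to 11.7 on HFD), as were red blood cell markers (8.56 to 8.96 and 9.14 to 10.01). Their part in the Pparg difference was not tested.

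In the prevention model the chow arrays read 5.26, 5.18 and 5.46 for Pparg, the HFD arrays 5.99, 5.95 and 5.85, and the CMPF arrays 6.02, 6.64 and 6.37. All HFD and CMPF arrays lay above the chow arrays. HFD against chow was 0.63 ± 0.18 (1.55-fold) with an adjusted p of 0.0511 by limma, just over the threshold of 0.05. It passed under 4 of 18 other settings (adjusted p 0.0373 to 0.0497) and stood at up to 0.765 in the rest. The index differed between these 2 groups as given above, and its part in the difference was not tested beyond the settings that adjust for it. The HFD effect on Pparg was larger in the reversal model by 1.09 ± 0.25 (adjusted p = 0.0256). The call for that difference was lost without prevention chow array 1 or 3, prevention HFD array 3 or reversal HFD array 1 (0.0603 to 0.0703). That difference was 0.98 with the index as a covariate (adjusted p = 0.246) and 0.97 without prevention chow arrays 1 and 3, the 2 of lowest index (adjusted p = 0.378). In both of these settings 0 of all genes passed for this difference, against 1452 as fitted.

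CMPF went with opposite differences in Pparg in the models, and neither passed. Against HFD with vehicle, reversal CMPF was lower by 0.94 ± 0.18 (log2 fold change -0.94, 95% interval -1.32 to -0.56, 1.92-fold). Its unadjusted p was 0.000105, rank 14 of 13228, and its adjusted p was 0.0992, with 0.0721 to 0.491 over 18 other settings. Prevention CMPF was at 0.33 ± 0.20 (interval -0.09 to 0.75, adjusted p = 0.74). The difference between these effects was -1.27 ± 0.26 (limma, adjusted p = 0.319). Reversal CMPF still lay above reversal chow, by 0.78 ± 0.18 (1.72-fold, adjusted p = 0.0383). This call was lost without reversal chow array 1 (0.58, adjusted p = 0.0724) or 3 (0.0585), without CMPF array 1 (0.135) or 3 (0.149), and without HFD array 1 and CMPF array 3 together (0.171). These comparisons share arrays: the reversal HFD group enters the HFD and the CMPF effect with opposite sign.

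**Figure D1:**
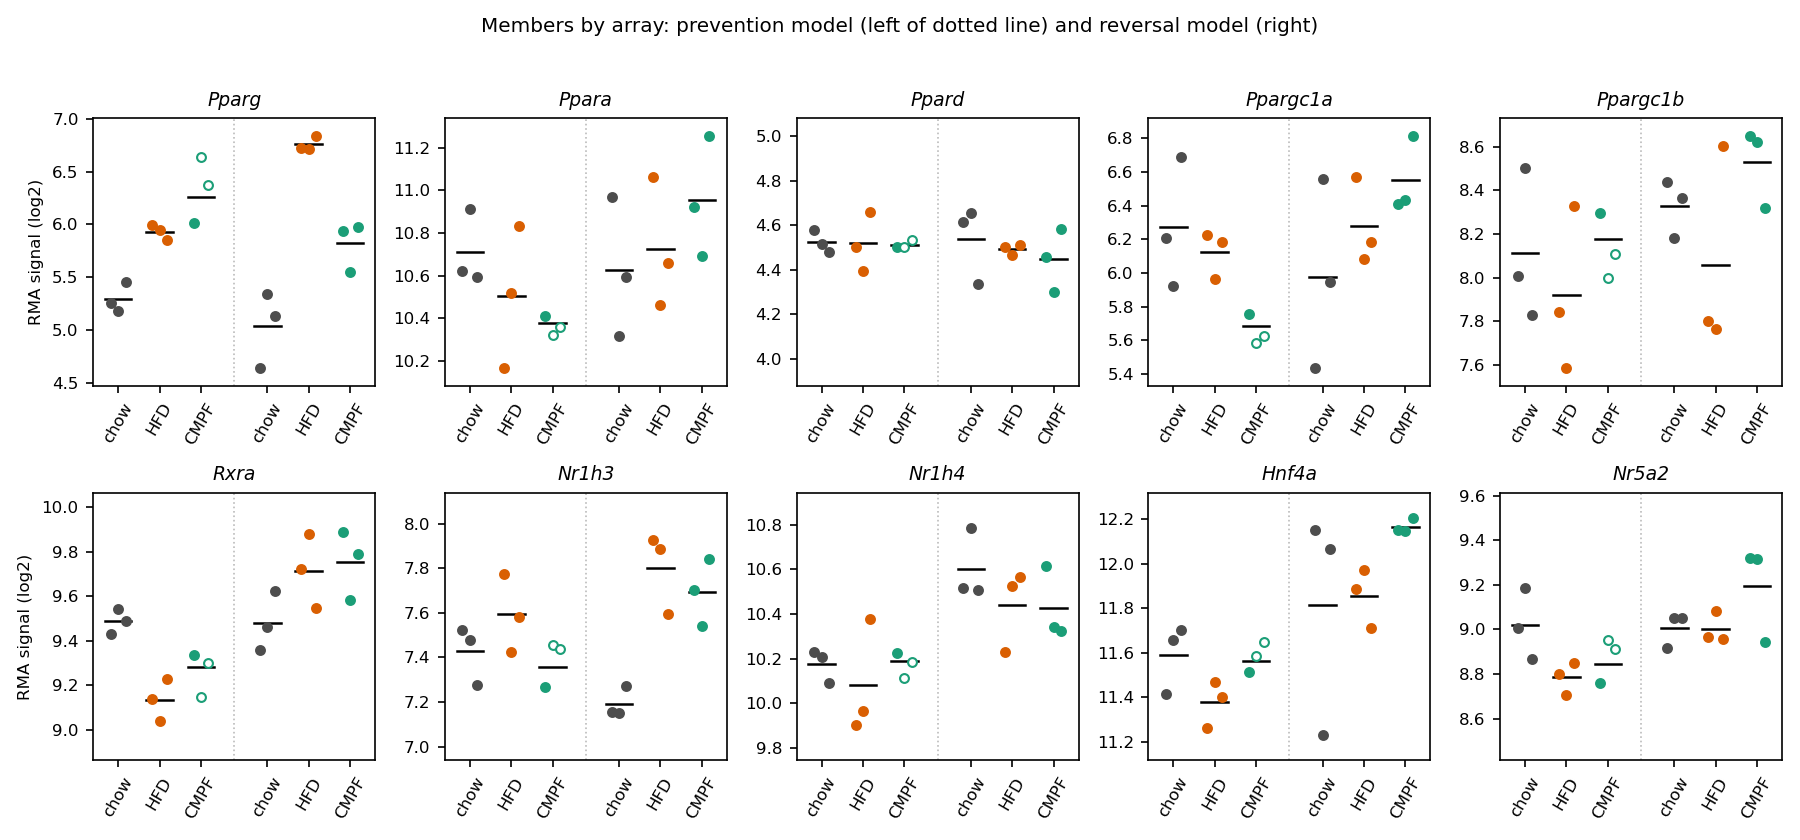
RMA signal (log2, vertical axis, a scale of its own in each panel) of the main probe set of each of the 10 genes on every array, with chow in grey, HFD in orange and CMPF on HFD in green; bars are group means, open circles are the near-identical pair averaged for the test, and the prevention model is left of the dotted line. The 3 reversal HFD arrays of Pparg sit between 6.71 and 6.84, above all other reversal arrays.

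Of the other PPAR genes, Ppara, the receptor of fatty acid oxidation, had no difference that passed. Its main probe set averaged 10.7 ± 0.177 (SD, n = 3) in prevention chow, 10.5 ± 0.334 in HFD and 10.4 ± 0.0495 (n = 2) in CMPF. Its reversal means were 10.6 ± 0.327, 10.7 ± 0.306 and 10.96 ± 0.284, and these groups overlap. HFD against chow was -0.21 ± 0.21 in prevention (interval -0.66 to 0.25) and 0.10 ± 0.21 in reversal (-0.36 to 0.56). Changes within those bounds are compatible with these arrays. Its other 2 probe sets stayed between 0.03 and 0.23 for HFD against chow and for CMPF against vehicle. Against chow, the CMPF arrays of the main probe set were all lower in prevention (-0.33, adjusted p = 0.64). Those of 1439675_at were all higher in reversal (10.5 to 10.7 against 10.04 to 10.24; 0.44, adjusted p = 0.218 over all probe sets).

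Ppard, the widely expressed PPAR delta, had the narrowest intervals, at a low signal. Its mean over all arrays was 4.51, below the lowest array mean of either model (5.08 and 5.25). At that level a narrow interval does not show that the gene was unchanged. Its main probe set averaged 4.53 in prevention chow, 4.52 in HFD and 4.51 in CMPF, and 4.54, 4.49 and 4.45 in the reversal groups, with overlapping arrays throughout. HFD against chow was -0.01 (interval -0.24 to 0.22) in prevention and -0.04 (-0.27 to 0.19) in reversal. The second probe set, 1425703_at, read 4.70, 5.21 and 4.6 on reversal chow against 4.30, 4.28 and 4.42 on reversal HFD. Those groups do not overlap, and the difference of -0.50 ± 0.13 did not pass (adjusted p = 0.0971).

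Rxra, the shared partner of PPAR, LXR and FXR, differed in opposite directions with HFD in the models, and the difference between the effects passed. Prevention chow read 9.43, 9.54 and 9.49 and prevention HFD 9.14, 9.04 and 9.23, so all HFD arrays were lower. The RNA quality index also differed between these prevention groups, as given above. Reversal chow read 9.36, 9.46 and 9.63 and reversal HFD 9.72, 9.88 and 9.55, where the groups overlap. Neither effect passed alone (-0.35 ± 0.11, adjusted p = 0.081, and 0.23 ± 0.11, adjusted p = 0.238). Their difference was 0.58 ± 0.16 (adjusted p = 0.0365). It was 0.22 (adjusted p = 0.451) once all arrays were quantile normalised together and 0.29 (0.268) after cyclic loess, so its size rests on the scaling, and it passed under 8 of 23 other settings.

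The CMPF groups of Rxra averaged 9.28 ± 0.0790 (n = 2) in prevention and 9.76 ± 0.155 in reversal. Against vehicle they differed by 0.15 (interval -0.13 to 0.42) and 0.04 (-0.20 to 0.28). A second Rxra probe set, 1425762_a_at, was at -0.17 and 0.18 for HFD in prevention and reversal, and the third, 1430497_at, was below the filter on low values.

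Nr1h3, the oxysterol receptor LXR alpha, rose with HFD in the reversal model. Reversal chow read 7.15, 7.15 and 7.27, HFD 7.93, 7.89 and 7.59, and CMPF 7.70, 7.54 and 7.84. All HFD and CMPF arrays lay above the chow arrays and overlapped each other. HFD against chow was 0.61 ± 0.13 (1.53-fold, limma, adjusted p = 0.0242), and CMPF against chow 0.50 ± 0.13 (adjusted p = 0.0579). The HFD call was lost under quantile normalisation (0.45, adjusted p = 0.0614), without reversal chow array 2, which stands apart (0.59, 0.0703), and without HFD array 1 (0.55, 0.102) or 2 (0.57, 0.0714). The Kupffer and red blood cell markers that were higher beside Pparg were higher here too, and the Kupffer sum with CMPF (11.2 to 11.7) overlapped both other groups. All 7 Kupffer markers had a positive HFD difference (median 0.84), 0 of them passed, and their part in the Nr1h3 difference was not tested.

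In the prevention model Nr1h3 read 7.53, 7.48 and 7.28 on chow, 7.77, 7.43 and 7.58 on HFD, and 7.27, 7.46 and 7.44 with CMPF. The 3 groups overlap. HFD against chow was 0.17 ± 0.13 (adjusted p = 0.447), and its difference from the reversal effect, 0.44 ± 0.18, did not pass (adjusted p = 0.11). CMPF against vehicle was -0.24 (interval -0.54 to 0.07) in prevention and -0.11 (-0.38 to 0.16) in reversal.

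Nr1h4, the bile acid receptor FXR, showed no difference that passed. It averaged 10.2 ± 0.0737 in prevention chow, 10.1 ± 0.257 in HFD and 10.2 ± 0.0553 in CMPF, and 10.6 ± 0.157, 10.4 ± 0.184 and 10.4 ± 0.165 in the reversal groups. The HFD differences were -0.10 (interval -0.40 to 0.21) and -0.16 (-0.46 to 0.14). CMPF against vehicle was 0.11 (-0.23 to 0.44) and -0.02 (-0.32 to 0.29).

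Hnf4a, the receptor that maintains hepatocyte identity, had 4 probe sets that disagreed in the prevention model. The main one, 1427001_s_at, read 11.42, 11.66 and 11.70 on chow and 11.26, 11.47 and 11.40 on HFD, and the groups overlap (-0.21 ± 0.19, adjusted p = 0.516). Probe set 1427000_at read 9.55, 9.32 and 9.48 on chow against 8.65, 8.65 and 8.41 on HFD. Probe set 1421983_s_at read 7.55, 7.18 and 7.96 against 6.31, 6.41 and 6.62. In these 2 every HFD array was lower, by -0.88 ± 0.27 (adjusted p = 0.0897 over all probe sets) and -1.11 ± 0.30 (0.0634), which missed the threshold, while 1450447_at was at 0.03. The RNA quality index did not overlap between these groups (0.97 to 1.98 on chow, 2.66 to 3.19 on HFD). Its part in the disagreement of the probe sets was not tested. In the files no exon or isoform is paired with the probe sets.

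In the reversal model the main Hnf4a probe set read 12.15, 11.23 and 12.06 on chow, 11.89, 11.97 and 11.71 on HFD and 12.15, 12.15 and 12.20 with CMPF. The lowest value is that of chow array 2, the array that stands apart. The CMPF arrays lay above the HFD arrays by 0.31 ± 0.19, which did not pass (limma, adjusted p = 1.00).

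Nr5a2, the phospholipid-binding receptor LRH-1 of bile acid and cholesterol handling, averaged 9.02 ± 0.161 in prevention chow and 8.79 ± 0.0733 in HFD, and all HFD arrays were lower (-0.23 ± 0.12, adjusted p = 0.237). A second probe set, 1449706_s_at, was at -0.48 ± 0.14 (adjusted p = 0.0809 over all probe sets), and 1420410_at at -0.31. The RNA quality index differed between these groups too, as given above. In the reversal model the main probe set averaged 9.01 ± 0.0758, 9.0 ± 0.0708 and 9.19 ± 0.216, with overlap. The fourth, 1449707_at, was below the filter.

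The PGC-1 coactivators, which join these receptors to drive mitochondrial and gluconeogenic genes, showed no difference that passed. Ppargc1a read 6.21, 5.92 and 6.69 on prevention chow, 6.22, 5.97 and 6.18 on HFD and 5.76, 5.58 and 5.63 with CMPF. The CMPF arrays lay below both other groups, by -0.44 ± 0.28 against HFD (adjusted p = 0.762). All 5 of its probe sets had a negative CMPF difference there (-0.50 to -0.20), with no overlap between groups in 3, where 30.7% of all genes have none. The reversal CMPF difference was positive in all 5 (0.04 to 0.39), and the main probe set averaged 5.98 ± 0.562, 6.28 ± 0.256 and 6.55 ± 0.228. The probe sets share their RNA and are not replicates, and the difference between models, 0.71 ± 0.38, did not pass (adjusted p = 0.682).

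Ppargc1b, the PGC-1 beta gene, averaged 8.11 ± 0.349, 7.92 ± 0.378 and 8.17 ± 0.175 in prevention chow, HFD and CMPF. Its reversal means were 8.33 ± 0.132, 8.06 ± 0.474 and 8.53 ± 0.185. CMPF against vehicle was 0.26 (interval -0.32 to 0.83) and 0.48 (-0.04 to 0.99), within the spread of the arrays.

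**Figure D2:**
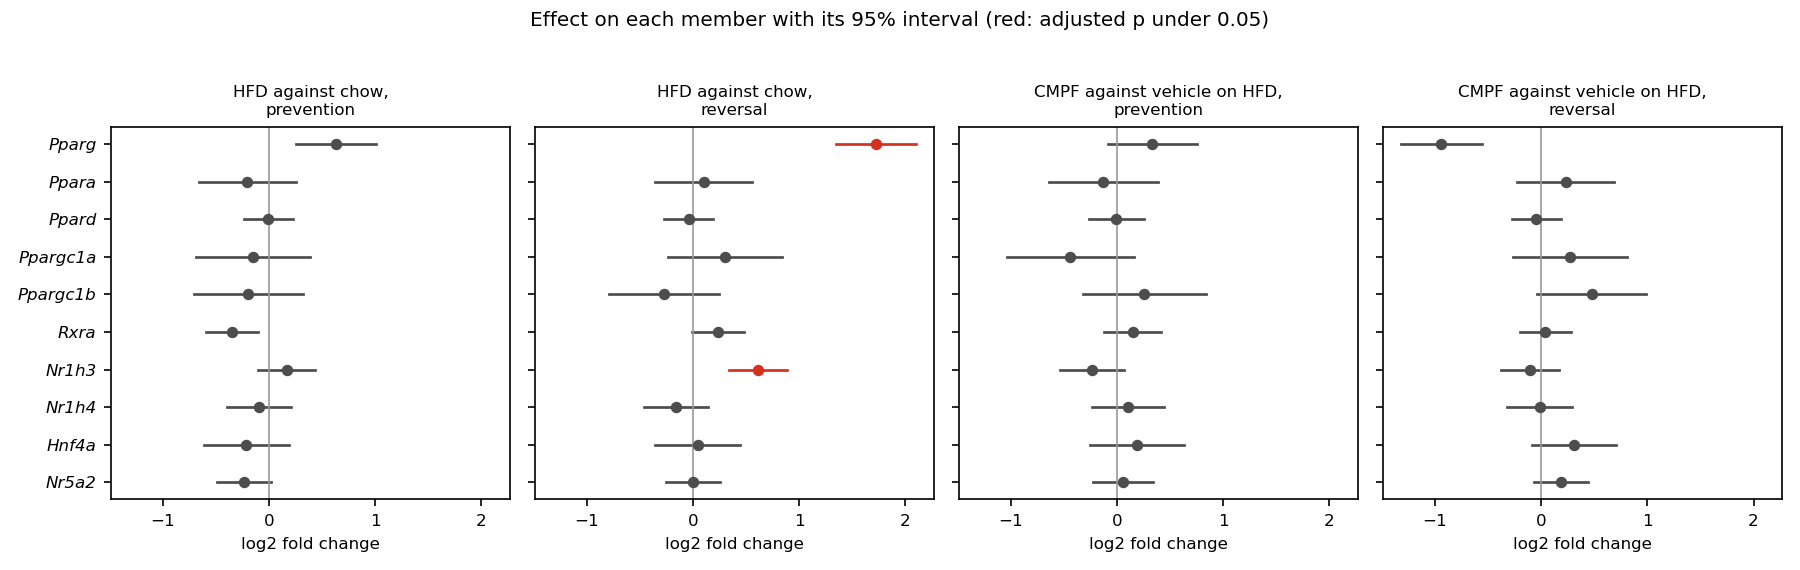
Log2 fold change (horizontal axis) of each of the 10 genes in 4 comparisons, with its 95% interval from limma; red marks adjusted p under 0.05. Pparg and Nr1h3 in the reversal HFD comparison are the red points, and the widest intervals are those of Ppargc1a.

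Counted over the 10 genes, 0 passed for HFD against chow in prevention, where 5.57% of 13228 genes did, and 2 rose in reversal, where 2.45% passed and 2.17% rose. At an unadjusted p under 0.05 the prevention count was 2 of 10, against 24.8% of all genes. For CMPF against vehicle 0 passed in prevention (0% of all genes, and 0 of 10 against 8.01% at an unadjusted p under 0.05). In reversal 0 passed (0.0378% of all genes, and 1 of 10 against 4.79% unadjusted). CMPF against chow gave 0 in prevention (0%, and 1 of 10 against 9.99% unadjusted) and 1 higher in reversal, where 2.00% passed and 1.61% rose. The difference of the HFD effects passed for 2 genes, both higher in reversal, where 11.0% of all genes passed and 8.84% were higher. The mean HFD effect over both models passed for Pparg (1.18 ± 0.12, adjusted p = 0.000412) and Nr1h3 (0.39 ± 0.089, adjusted p = 0.0447), where 1.72% of all genes passed and 1.37% rose. The Nr1h3 call held under 9 of 23 other settings and in 2 of 12 fits with an array left out (adjusted p up to 0.124 there). For the difference and the mean of the CMPF effects 0 of 10 passed (0% of all genes in both), with 1 of 10 in each at an unadjusted p under 0.05, against 7.92% and 5.20%.

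Groups without overlap were found for 3 of the 10 in prevention HFD against chow (29.2% of all genes) and for 2 in reversal (23.3%). For CMPF against vehicle there were 3 in prevention (30.7%) and 2 in reversal (8.82%), Pparg lower and Hnf4a higher. For CMPF against chow there were 4 (31.7%) and 2 (18.4%). Most of these shares are near the background. Fitted as probe sets, 2 of the 25 passed for HFD in reversal, the Pparg and Nr1h3 probe sets, against 0.673% of 45037.

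**Figure D3:**
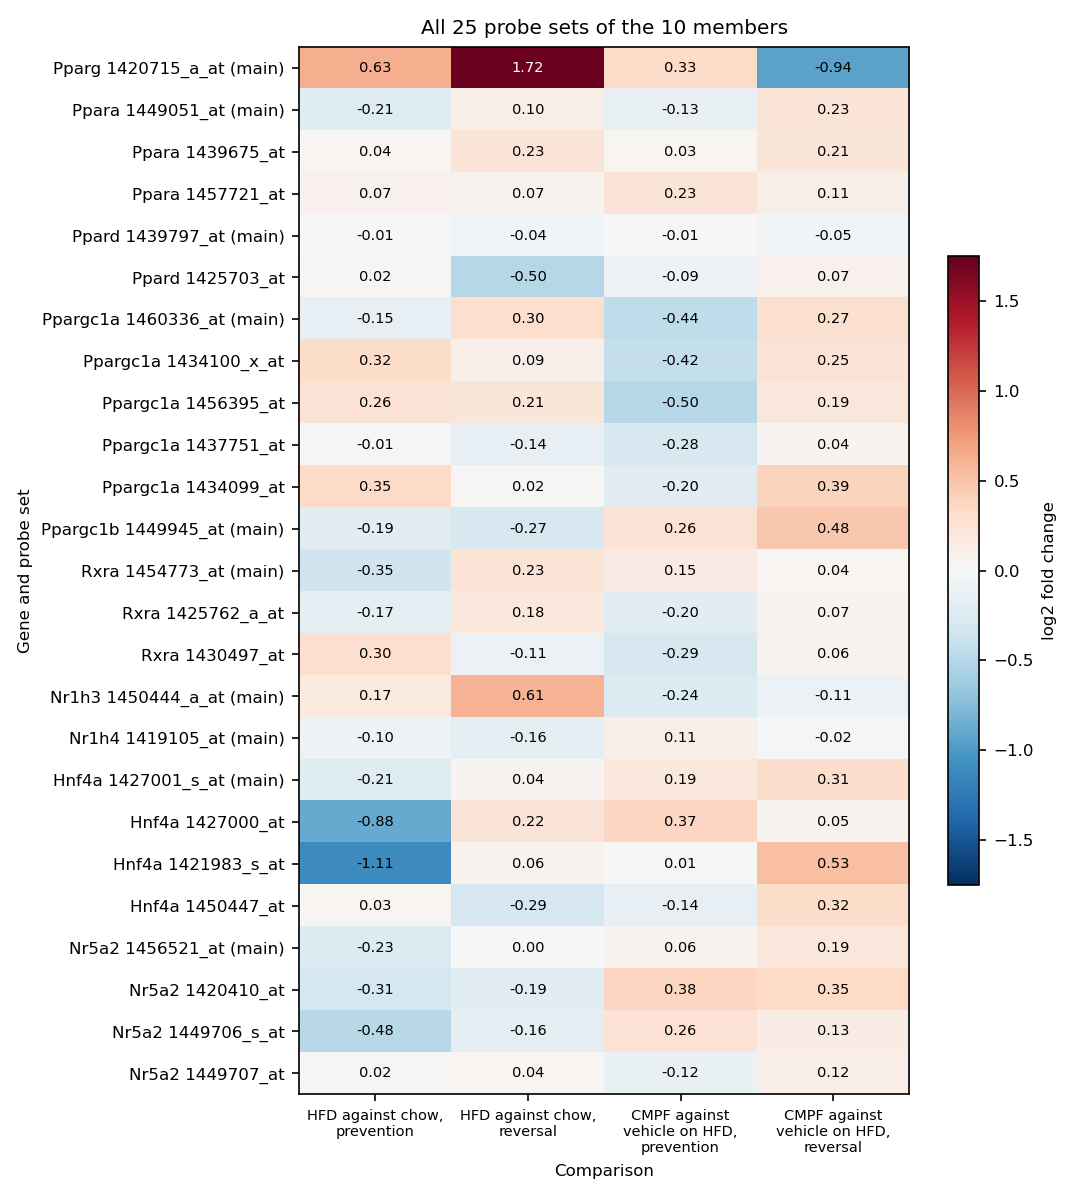
Log2 fold change (number and colour) of the 25 probe sets of the 10 genes (rows) in 4 comparisons (columns). The 2 darkest cells are Pparg in reversal HFD (1.72) and Hnf4a 1421983_s_at in prevention HFD (-1.11).

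Across the 17 samples, with each model's mean subtracted, Pparg and Nr1h3 had the highest correlation of the 45 pairs of these genes (r = 0.67), then Ppara with Hnf4a (0.56) and Rxra with Nr5a2 (0.54). Nr1h3 and Nr1h4 had the lowest (-0.47). All values share the same arrays and group differences, so these figures only describe the pattern.

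Genes regulated by PPAR gamma in fatty liver (13 of 17 listed genes above the filter) held Mogat1 and Cd36, whose HFD rises passed in both models. In reversal HFD against chow 2 of 13 tested genes rose and 1 fell (median 0.16, against 0.03 over all genes), where 2.17% of all genes rose and 0.280% fell. Mogat1, which builds diacylglycerol from monoacylglycerol, read 4.41, 3.98 and 3.84 on chow, 6.39, 6.41 and 7.34 on HFD and 4.58, 4.44 and 4.83 with CMPF. HFD lay far above the other 2 groups, by 2.64 ± 0.29 over chow (adjusted p = 0.000766). With CMPF it fell by 2.10 ± 0.29 against vehicle (log2 fold change -2.10, limma, adjusted p = 0.0271), the only gene of the 9 lists that passed in a comparison of CMPF with vehicle. That call was lost without any 1 of the 3 CMPF arrays or HFD array 3 (adjusted p 0.0601 to 0.164), and without HFD array 1 and CMPF array 3 together (0.0625).

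Cd36, a fatty acid uptake protein, read 6.96, 5.98 and 6.35 on reversal chow, 9.54, 8.99 and 10.44 on HFD and 6.94, 6.60 and 8.10 with CMPF. It rose with HFD by 3.22 ± 0.51 (adjusted p = 0.00752). Lpl, the lipase that frees fatty acids from lipoproteins, fell by 1.98 ± 0.43 (adjusted p = 0.0306), opposite to Pparg, and was also lower with CMPF than on chow (-2.32, adjusted p = 0.0161). The Lpl call for HFD was lost without chow array 3 or HFD array 2 or 3 (adjusted p 0.083 to 0.0922), and that for CMPF against chow, where 0.393% of all genes fell, without CMPF array 1 (0.0742). With CMPF against vehicle in reversal 12 of the 13 genes had a negative difference, whether it passed or not (median -0.39, against -0.01 over all genes). Of the 13 only Mogat1 passed, where 0.0151% of all genes passed as higher and 0.0227% as lower.

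In prevention HFD against chow 4 of the 13 rose: Mogat1 (1.59), Cd36 (2.25), Plin4, a lipid droplet coat protein (1.71), and Vldlr, a lipoprotein receptor (1.83, named after its value was seen). Fabp5, a fatty acid binding protein, fell (log2 fold change -2.97). As fitted, 1.74% of all genes rose and 3.83% fell. Without prevention chow arrays 1 and 3, the 2 of lowest index, 1 chow array is left. The index and the number of chow arrays change together there, so their parts cannot be told apart. The differences there were 1.43 for Mogat1, 2.41 for Cd36, 1.03 for Plin4 and -3.56 for Fabp5. No gene of the list passed for CMPF against vehicle in prevention (lowest p: Acacb, an acetyl-CoA carboxylase, -1.25, adjusted p = 0.359). There the CMPF mean also lay below the HFD mean for every tested gene of the list but Fabp5, G0s2, Agpat2 and Lpl. Among the lower were Mogat1 (5.53 against 6.23) and Cd36 (8.06 against 8.68), whereas Pparg was at 0.33.

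**Figure D4:**
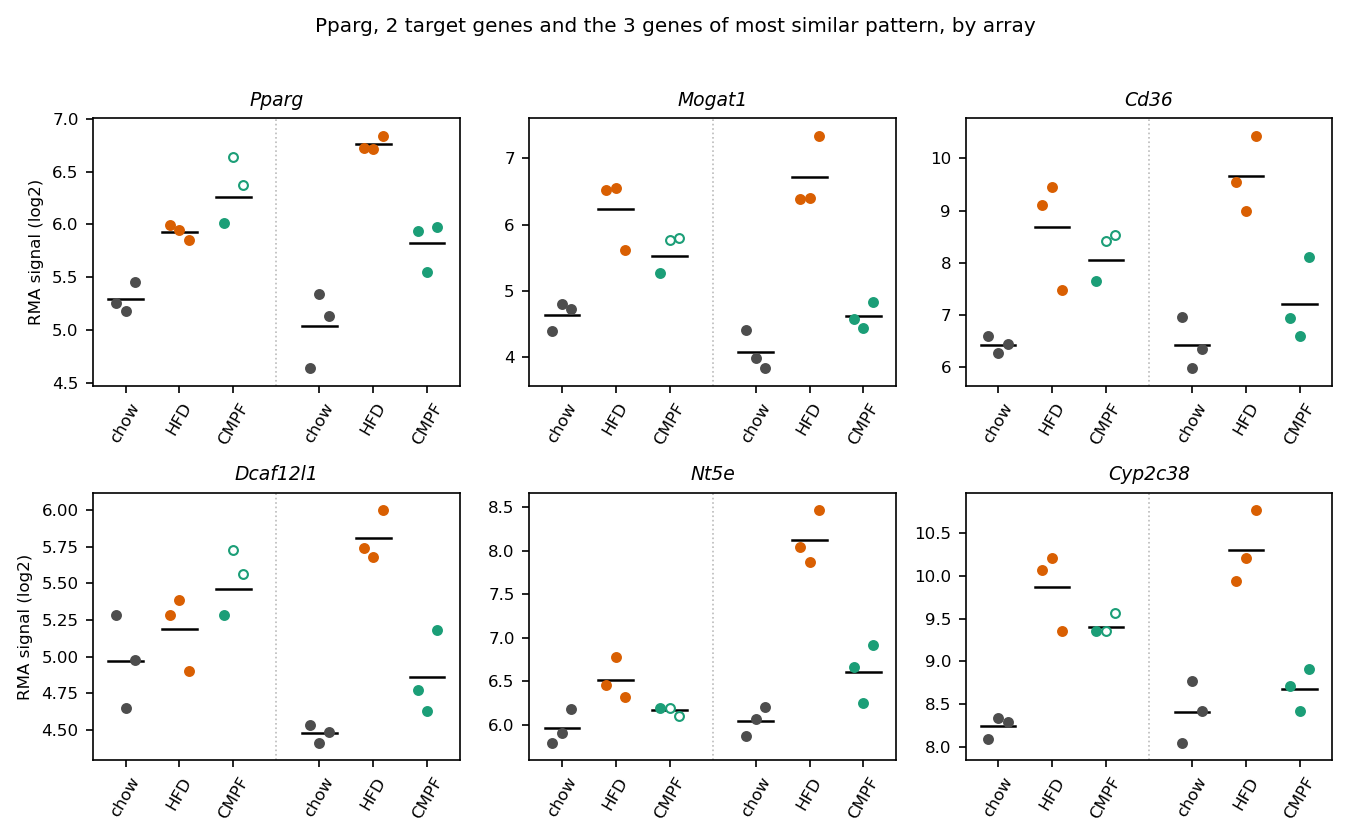
RMA signal (log2, vertical axis) on every array of Pparg, of its targets Mogat1 and Cd36, and of the 3 genes of most similar pattern, with colours and bars as in the plot of the 10 genes by array. In the reversal model the 3 HFD arrays lie above the chow and CMPF arrays in all 6 panels.

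Of 29 tested targets of PPAR alpha, mostly fatty acid oxidation genes, 4 fell and 0 rose on HFD in prevention, where 3.83% of all genes fell (median -0.26, against 0.0016 over all genes). They were Cpt1a, which admits fatty acids to mitochondria (-0.96 ± 0.14), Hadha and Hadhb of the mitochondrial trifunctional protein (-0.85 and -1.29), and Ehhadh of peroxisomal oxidation (-1.43). In reversal 1 fell, Cyp4a31, a fatty acid hydroxylase with close relatives that its probes may also detect (-2.20, adjusted p = 0.0473), a call lost without any 1 of the HFD arrays or chow array 1 or 3 (0.0661 to 0.136) and without the filter (0.056). Acot2 and Ehhadh, of acyl-CoA cleavage and peroxisomal oxidation, were lower with CMPF than on chow in reversal (-0.996, adjusted p = 0.0475, and -1.25, 0.0483), calls lost without HFD array 1 and CMPF array 3 together. For CMPF against vehicle 0 of 29 passed in either model; the lowest p was that of Fgf21, a liver hormone, in prevention (2.04 ± 0.49, adjusted p = 0.274) and of Vnn1, a pantetheinase, in reversal (-0.81, 0.912).

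Genes coactivated by PGC-1 had the lowest median of the lists in prevention HFD against chow (-0.62), with 7 of 15 lower and 0 higher, where 3.83% of all genes were lower. Beside Cpt1a they included Atp5b of ATP synthase (-0.62 ± 0.13), Idh3a of the citric acid cycle (-1.03 ± 0.23) and Tfb2m, a mitochondrial transcription factor (-0.70 ± 0.17). In the same comparison Ppargc1a was at -0.15 and Ppargc1b at -0.19. In reversal 0 of 15 passed, and Atp5b was at 0.52 (adjusted p = 0.0541). The RNA quality index did not overlap between prevention chow and HFD (0.97 to 1.98 and 2.66 to 3.19). Its part in the falls of the PPAR alpha and PGC-1 lists was not tested beyond the settings that adjust for it. Without prevention chow arrays 1 and 3, the 2 of lowest index, 1 chow array is left. The differences there were -0.73 for Cpt1a, -0.84 for Hadha, -1.14 for Hadhb and -1.55 for Ehhadh. They were -0.44 for Atp5b, -0.59 for Idh3a and -0.42 for Tfb2m.

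Of 15 LXR targets, Fasn, the fatty acid synthase, rose in reversal HFD (1.08 ± 0.26, adjusted p = 0.0469) and Lpl fell. Fasn read 7.51, 6.93 and 7.28 on chow, 8.13, 8.0 and 8.82 on HFD and 8.05, 8.38 and 8.17 with CMPF, so both HFD groups lay above chow, as for Nr1h3. Its call was lost without chow array 2 or 3 or any 1 of the HFD arrays (adjusted p 0.0599 to 0.139), and under quantile normalisation (0.0964). Not all of the list lay this way: in reversal Scd1 averaged 12.78 on HFD and 13.18 on chow, and Pltp 9.37 and 9.25, with overlap. In prevention 0 of 15 passed for HFD (Pltp, a phospholipid transfer protein, 1.2, adjusted p = 0.0852). For CMPF against vehicle 0 passed in either model. Scd1, the stearoyl-CoA desaturase, had the lowest p in both, at -3.08 ± 0.92 in prevention (adjusted p = 0.409) and -2.81 ± 0.82 in reversal (0.569).

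Of 17 FXR targets 1 fell in prevention HFD, the bile acid importer gene Slc10a1 (-1.16 ± 0.18, adjusted p = 0.0113), and of 14 HNF4 alpha targets 2 fell there, Mttp of lipoprotein assembly (-0.61, 0.0105) and Otc of the urea cycle (-0.86, 0.0293). Without chow arrays 1 and 3, where 2 of all genes passed, the 3 were at -0.80, -0.63 and -0.60 and did not pass. Of 7 LRH-1 targets 0 passed in any comparison of 2 groups. Nr0b2, the small heterodimer partner that FXR induces, was at 1.45 ± 0.32 with CMPF in prevention (adjusted p = 0.252).

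Among 24 other nuclear receptors, Rora and Nr1d2, of the circadian clock, fell in prevention HFD (-0.60, adjusted p = 0.0217, and -0.44, 0.0401), and were at -0.57 and -0.39, not passing, without chow arrays 1 and 3. Nr1d2 rose with CMPF against chow in reversal (0.75 ± 0.11, 0.00561), a call lost under quantile normalisation (0.54, 0.052) and with the 2 groups alone (0.106). Its HFD arrays without CMPF (10.80 to 10.94) also lay above chow (10.41 to 10.54), and its CMPF arrays were at 11.06 to 11.34. Of 18 coactivators and corepressors, Lpin1, a phosphatidate phosphatase that also coactivates PPAR alpha, rose with CMPF against chow in reversal (3.01 ± 0.61, adjusted p = 0.0229). It read 6.23, 5.94 and 8.48 on chow, 8.48, 8.57 and 7.06 on HFD and 9.17, 9.79 and 10.73 with CMPF. The CMPF arrays lay above both other groups. The call was lost without chow array 1 (0.0599) or 2 (0.0787) or CMPF array 3 (0.1). Against vehicle the difference of 1.86 did not pass (adjusted p = 0.68). Nr1i2, the xenobiotic receptor PXR, was at 0.79 ± 0.17 with CMPF against vehicle in reversal (0.172).

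**Figure D5:**
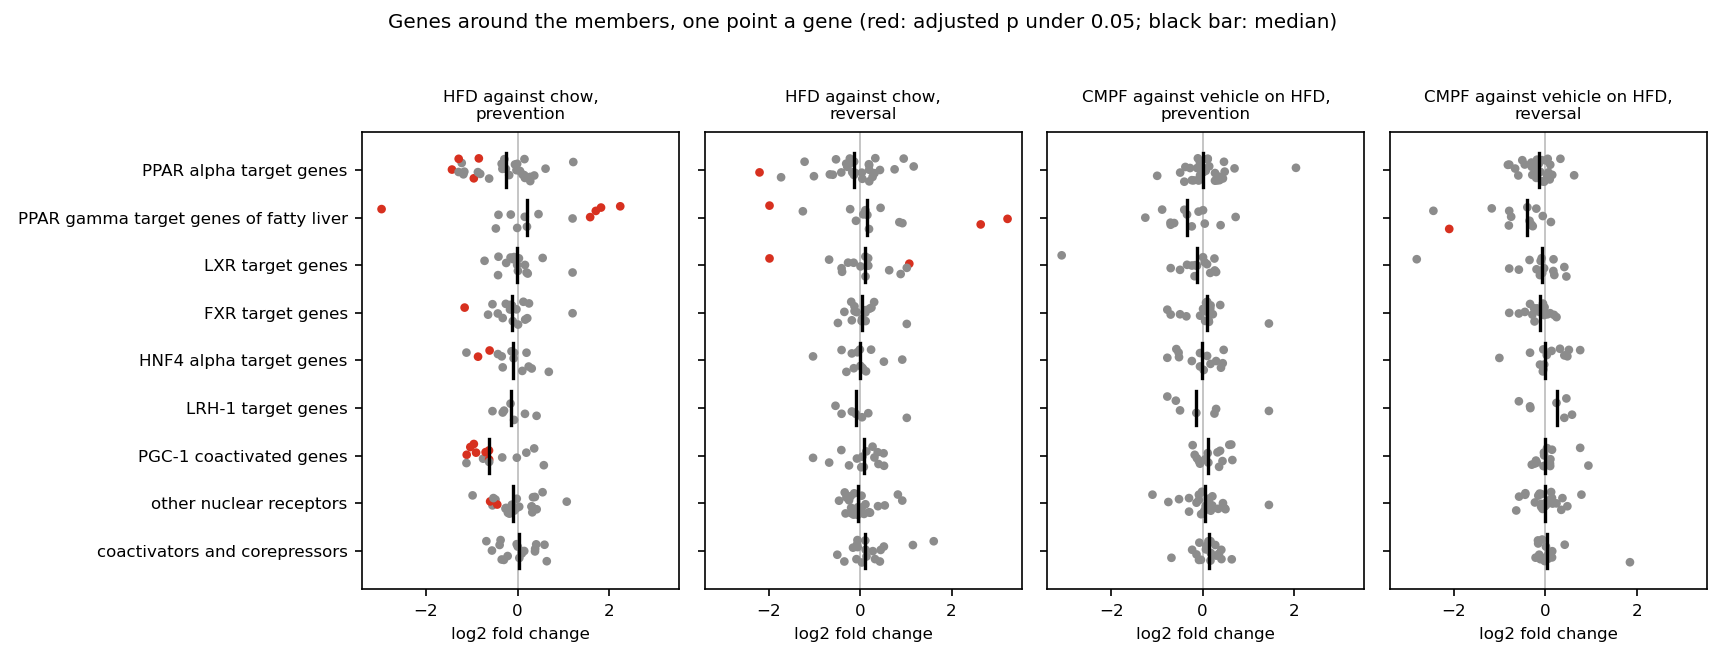
Log2 fold change (horizontal axis) of the tested genes of 9 lists (rows) in 4 comparisons; each point is a gene, red marks adjusted p under 0.05 and black bars are list medians. The PGC-1 list has its median at -0.62 in prevention HFD and the PPAR gamma list at -0.39 in reversal CMPF.

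The genes whose pattern over the 17 samples was most like that of Pparg, by Pearson's r with each model's mean subtracted, were Dcaf12l1 (r = 0.89, rho = 0.91), Nt5e, which makes adenosine outside the cell (0.88, 0.89), and Cyp2c38, an arachidonic acid epoxygenase of mouse (0.87, 0.87). Without the 2 samples farthest from the Pparg median r was 0.89, 0.83 and 0.83. In reversal Nt5e rose with HFD by 2.08 ± 0.19 (adjusted p = 0.000429) and with CMPF against vehicle was at -1.52 ± 0.19 (0.0199). Cyp2c38 was at 1.90 and -1.63 (adjusted p = 0.00311 and 0.0381), and Dcaf12l1 at 1.33 and -0.95 (0.00483 and 0.112). These genes were chosen for their likeness to Pparg over the same samples, so their values describe the choice. With CMPF against vehicle in prevention Nt5e was at -0.35, Cyp2c38 at -0.47, Dcaf12l1 at 0.27 and Pparg at 0.33, none passing.

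For Nr1h3 the nearest were Rnh1, the ribonuclease inhibitor (r = 0.93, rho = 0.92), Trak2, a mitochondrial transport adaptor (0.89, 0.88), and Tpi1 of glycolysis (0.89, 0.85). Trak2 rose by 1.01 ± 0.14 with HFD in reversal (adjusted p = 0.00483), and CMPF against vehicle was -0.03. For Rxra they were Glyctk, a glycerate kinase (0.93, 0.87), Gtpbp4, a GTPase of ribosome assembly (0.90, 0.90), and Lipt1, a lipoyl transferase (0.85, 0.79). All 3 fell with HFD in prevention (-0.45, -0.68 and -0.57, adjusted p = 0.041, 0.04 and 0.0401). The genes nearest to Nr1h3 and Rxra were likewise chosen for their likeness, so these values describe the choice.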

How the data were processed

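The deposited table holds log2 signals of 45101 probe sets (64 controls), which the authors computed by RMA in Expression Console 1.1, per the submitters' processing notes. RMA corrects background, normalises quantiles and summarises probes, so a log2 difference is relative to the whole array. Arrays have no read depth; their number limits the precision. The annotation gave 34945 probe sets 1 symbol, 932 several, and left 9160 unnamed here.

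Probe sets in the lowest 40% by mean were dropped and the highest-mean probe set kept, leaving 13228 genes, all 10 members among them (23 of their 25 probe sets). limma 3.58.1 in R 4.3.3 fitted 1 model of 6 group means to 17 samples (11 residual degrees of freedom), with Benjamini-Hochberg adjustment over all genes and a threshold of 0.05. On simulated data for HFD in reversal, 73 of 100 genes shifted by 1 log2 and 96 of 100 shifted by 2 were recovered among 13228, with 7 false calls. A second fit took all 45037 probe sets unfiltered. Promoters came from RefSeq GRCm38.p6; 9 of 10 members have an entry.

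Named genes were all members, per list the up to 4 called genes of lowest p (with none, the 1 of lowest p), and the 3 genes most like each called member. Members and lists were chosen with earlier results of these data known. The alternatives varied filter, probe set, normalisation, moderation, samples, index and replicate block. Same-numbered arrays deviated together (r over 0.1) in 6 of 18 pairs (r from -0.37 to 0.44), so the main fit did not pair the samples by number. With 3 arrays in a group this check cannot exclude a pairing.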

Additional observations from a re-analysis of the deposited data

Results flagged for a closer look

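The HFD effect on Pparg differed between the models by 1.09 (log2, reversal minus prevention; SE 0.25), and this difference passed its own test (limma, adjusted p = 0.0256). The reversal effect was 1.72 and the prevention effect 0.63, both upward. The HFD effect on Rxra differed by 0.58 (SE 0.16, adjusted p = 0.0365), from -0.35 in prevention to 0.23 in reversal. Of all 13228 genes, 11.0% passed the same test. Pparg lost its call without prevention chow array 1 or 3, prevention HFD array 3 or reversal HFD array 1 (adjusted p 0.0603 to 0.0703). Rxra lost its call under most other settings, with quantile normalisation at 0.22 (adjusted p = 0.451). With the RNA quality index as a covariate Pparg was at 0.98 (limma, adjusted p = 0.246) and Rxra at 0.63 (0.241). In that setting 0 of all genes passed, against 1452 as fitted. The index averaged 1.43 on chow and 2.84 on HFD in prevention, and 3.15 and 2.62 in reversal. The models also differ in the length of the diet and in when the injections came. The table's values lie at 2 levels, so what sets the difference cannot be told apart here.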

How the results depend on the processing

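Of 2000 values of the 10 genes under other settings, 1942 stayed on their side of the threshold, 53 lost their call and 5 gained it. Of the values with a call, as fitted or under the other setting, 0 changed sign. Values without a call could change sign and still count as unchanged. The Ppard difference for HFD in prevention, -0.01 as fitted, kept its sign in 11 of 17 settings. Most of the 2000 had no call to lose, so their share does not measure how stable the calls were. All 53 losses were of Pparg, Nr1h3 or Rxra, the genes with a call. For HFD against chow in prevention (0 called), the count was 1 with the 2 groups alone, the model's arrays alone, 60% of probe sets dropped or all 18 arrays, and 0 to 0 with an array left out. In reversal (2 called) it was 0 with the 2 groups alone, 1 with the model's arrays alone, quantile normalisation, the replicate block or without the low-index reversal arrays (HFD 1 and CMPF 3), and 1 to 2 with an array left out. For CMPF against chow in reversal (1 called) it was 0 with the 2 groups alone, the model's arrays alone, the replicate block or without those arrays, 2 with all 18 arrays, and 0 to 1 with an array left out. The mean HFD effect (2 called) gave 1 with the replicate block, trend and robust moderation or without either set of low-index arrays, and 1 to 2 with an array left out. The difference of HFD effects (2 called) gave 1 with cyclic loess, quantile normalisation, the mean of probe sets or the replicate block, 0 when the index was a covariate or without either set of low-index arrays, and 0 to 2 with an array left out. The replicate block changed no other count of the 10 genes. The causes were not tested. Of the named list genes' 1123 values 182 lost and 22 gained a call, and of 306 list counts 24 moved by over 1.5 times. Over all genes the calls ranged from 2 to 1624 for HFD in prevention (737 as reported), 0 to 577 in reversal (324), 0 to 36 and 0 to 17 for CMPF in prevention (0) and reversal (5), 0 to 6 and 8 to 385 for CMPF against chow (0 and 265), 0 to 2400 for the difference of HFD effects (1452) and 29 to 479 for their mean (227). The settings without low-index arrays were chosen after seeing the data.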

Other observations

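Exocrine pancreas markers, of which 3 of 5 were above the filter, reached a summed level of 9.24 (log2) on a prevention chow array and 7.78 on a reversal chow array, against at most 6.61 on any prevention HFD array and 6.16 on any reversal HFD array. Of 5 red blood cell markers 3 had a probe set, and 2 were above the filter. The summed level of the 3 was 8.56 to 8.96 in reversal chow and 9.14 to 10.01 in reversal HFD. Ppargc1a spread widely in reversal chow, with arrays at 5.44, 6.56 and 5.94, so its HFD difference there of 0.30 ranged from 0.03 to 0.59 with an array left out.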
